A study of Mus musculus with 34 samples.

Results

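The neuropeptide genes that mark classes of inhibitory interneuron were examined in mouse brain, 7 in all: Cort (cortistatin), Sst (somatostatin), Npy (neuropeptide Y), Vip (vasoactive intestinal peptide), Cck (cholecystokinin), Crh (corticotropin-releasing hormone) and Tac2 (neurokinin B). They were taken by symbol from a deposited table of 16389 genes, in which all 7 were present, and all 7 passed the filter on low values that left 14710 genes for testing. The set was chosen by a value measured in these libraries, namely the lower level of Cort in the cortex of irradiated mice, so no difference of Cort that involves the cortex is tested here, and its values there are a description.

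The data were 34 libraries of RNA from 3 dissected regions (cortex, hippocampus, and thalamus along with striatum) of 12 male C57BL/6 mice, 10 of which gave all 3 regions. WT CON mice received no irradiation, no transplant and no inhibitor. GFP-BM CON mice received 1000 cGy of whole-body irradiation as young adults and then bone marrow from CAG-EGFP donors, whose cells carry green fluorescent protein. GFP-BM REPOP mice received the same irradiation and transplant, and 3.5 months after irradiation ate chow with 600 ppm PLX3397 for 14 days, then recovered for 6 months. PLX3397 inhibits CSF1R, the receptor on which microglia depend for survival. Irradiation and transplant came together in every irradiated mouse, so their shares cannot be told apart. There were 4 libraries of each treatment in each region, except 3 of WT CON in cortex and 3 of GFP-BM CON in thalamus.

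Cortical interneurons release GABA for fast inhibition, and many also store a peptide in dense-core granules that is released during sustained firing. Each peptide is cut from a longer precursor and acts at its own G protein-coupled receptors. Somatostatin and neuropeptide Y mark overlapping classes that contact dendrites, vasoactive intestinal peptide marks cells that mainly inhibit other interneurons, and cortistatin, a close relative of somatostatin found in part of the same cells, binds somatostatin receptors and is known for its link to slow-wave sleep. Cholecystokinin is also made by many excitatory neurons, so its level in tissue is not that of interneurons alone. In bulk tissue, fewer cells of a type and less RNA per cell cannot be told apart.

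Cortistatin and somatostatin share the C-terminal stretch that forms the active peptide, and because the 2 genes gave different patterns below, the coding bases of the last 14 codons of each precursor are shown. Both stretches lie in coding exon 2 and were read from the GENCODE transcripts of GRCm38, Cort at chr4:149125267-149125308 on the minus strand and Sst at chr16:23889732-23889773 on the minus strand. Capitals mark bases that are identical when Sst is shifted by 1 codon.
Cort: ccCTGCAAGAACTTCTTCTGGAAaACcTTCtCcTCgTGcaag
Sst: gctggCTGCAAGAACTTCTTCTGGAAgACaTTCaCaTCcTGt
Of the 39 aligned bases, 31 (79.5%) were identical. The longest run shared by the whole transcripts, 677 bases for Cort and 721 for Sst, was 21 bases. Sst was present at far more reads than Cort, 2048 to 5394 against 23 to 227 per library.

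The bases just upstream of the RefSeq starts of the 2 genes were compared for the cAMP response element, a motif for which the somatostatin promoter is well known. Starts differ between annotations. The Sst bases shown lie inside the gene span chr16:23889573-23890958 of the annotation used for gene positions, and the Cort bases lie outside that of Cort. Capitals mark the letters TGACG on either strand, which in Sst overlap to give the palindrome TGACGTCA.
Cort: tccggcttgtgCGTCAccgcgtgagtgtg
Sst: gcctccttggcTGACGTCAgagagagagt
These RefSeq windows on GRCm38.p6 cover 29 bases each, chr4:149126764-149126792 (bases -29 to -1 from the start of Cort) and chr16:23890875-23890903 (bases -59 to -31 from the start of Sst), both on the minus strand. In windows of 250 bases before to 50 after the start, TGACG on either strand was present in Cort, Sst, Vip and Cck, absent as these letters from Npy and Tac2, and present in 20.81% of 32851 promoters. The full TGACGTCA was found in Sst and in 1.79% of all promoters. These matches are letters in a window and say nothing about binding.

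Cort, whose gene spans chr4:149125034-149126763 on the minus strand, was measured at 12.8, 19.8 and 16.4 FPKM (fragments per kilobase of gene, scaled to the library's total) in the 3 WT CON cortices. It was at 10.1, 7.76, 7.75 and 6.77 FPKM in the GFP-BM CON cortices and at 6.88, 9.34, 8.10 and 7.74 FPKM in the GFP-BM REPOP cortices. Every irradiated cortex thus lay below every WT CON cortex, and the 2 irradiated groups overlapped throughout. The group means were 16.3 ± 3.51 FPKM (SD, n = 3), 8.10 ± 1.43 (n = 4) and 8.02 ± 1.02 (n = 4). On the scale of log2(FPKM + 0.1), used for all differences here, GFP-BM CON minus WT CON was -0.995 (SE 0.16, a ratio of 0.502) and GFP-BM REPOP minus WT CON was -1.004 (SE 0.16, a ratio of 0.499). Both comparisons use the same 3 WT CON libraries. GFP-BM REPOP minus GFP-BM CON was -0.01 (SE 0.15).

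Cort is a gene of few reads, 142 to 227 in the WT CON cortices, 70 to 122 in GFP-BM CON and 66 to 81 in GFP-BM REPOP. Leaving out any 1 cortex library kept the first difference between -1.16 and -0.85 and the second between -1.17 and -0.86. Since cortex values chose Cort, these ranges are a description and no support for the difference. Among the genes next to Cort, Cenps (a centromere protein) ends 357 bases upstream on the same strand and lay at 2.34 to 2.75, 1.74 to 3.71 and 2.25 to 2.84 FPKM in the 3 cortex groups. Dffa, an inhibitor of a DNA-cutting nuclease, lies 4386 bases away on the other strand and differed by -0.02 and 0.04 from WT CON in the 2 irradiated groups. No annotated gene overlaps Cort or any other of the 7.

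**Figure D1:**
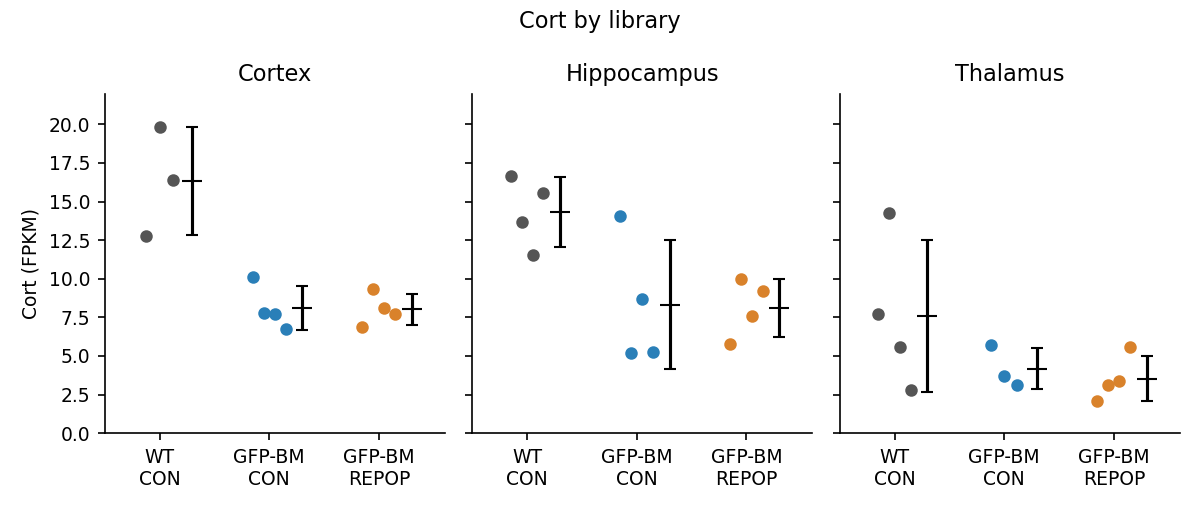
Cort in FPKM (vertical axis) for each library, by treatment (horizontal axis) in 3 regions; points are libraries, and the bar beside them is the mean with 1 SD on either side. In cortex the 3 WT CON libraries lie between 12.8 and 19.8 FPKM and all 8 irradiated libraries between 6.77 and 10.1, while in thalamus the groups overlap.

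Across all genes, 47 of 14710 (0.320%) passed an adjusted p of 0.05 (limma with Benjamini-Hochberg adjustment) for GFP-BM CON against WT CON in cortex, and 2347 (16.0%) had groups without overlap. Because this comparison chose Cort, nothing is read from those shares for the 7 genes. Their differences, as values only, ran from -0.995 for Cort to 0.06 for Vip, with a median of -0.002 beside 0.02 over all genes.

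The other 6 peptides varied little between the cortex groups. Sst, the most abundant after Cck, was at 303, 335 and 322 FPKM in WT CON, at 320, 282, 327 and 284 FPKM in GFP-BM CON, and at 263, 298, 278 and 327 FPKM in GFP-BM REPOP. Its groups overlapped, and its differences from WT CON were -0.08 (SE 0.08) and -0.14 (SE 0.08) against -0.995 and -1.004 for its relative Cort. Cck lay between 413 and 509 FPKM in all 11 cortices, Vip between 17.9 and 23.6, Tac2 between 6.31 and 8.49 and Crh, which in cortex marks a minority of interneurons, between 2.75 and 5.43. The SD within groups was 0.09 for Cck, 0.11 for Vip, Npy and Sst, 0.16 for Tac2, 0.27 for Crh and 0.24 for Cort, beside a median of 0.12 over all genes tested.

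For GFP-BM REPOP against WT CON in cortex, 108 of 14710 genes (0.734%) were called, and none of the 6 peptides tested was among them. One of the 6, Npy, had an unadjusted p under 0.05 in limma, as did 14.3% of all genes, and voom on the recovered reads also called none. Npy stood at 103, 111 and 102 FPKM in WT CON, at 119, 95.4, 102 and 107 FPKM in GFP-BM CON, and at 96.6, 93.5, 85.7 and 101 FPKM in GFP-BM REPOP. All 4 GFP-BM REPOP libraries lay below all 3 WT CON libraries, as they did for 1395 genes (9.48%) in either direction, with a difference of -0.16 (SE 0.07; adjusted p = 0.34). GFP-BM REPOP against GFP-BM CON called 7 genes (0.0476%) and none of the 6 peptides, with 2 at an unadjusted p under 0.05 beside 4.27% of all genes. These were Npy at -0.16 (SE 0.07) and Vip at -0.15 (SE 0.07), both at an adjusted p of 1.0. With libraries corrected for the G and C content of genes, as set out below, Vip was at -0.035 (SE 0.10).

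**Figure D2:**
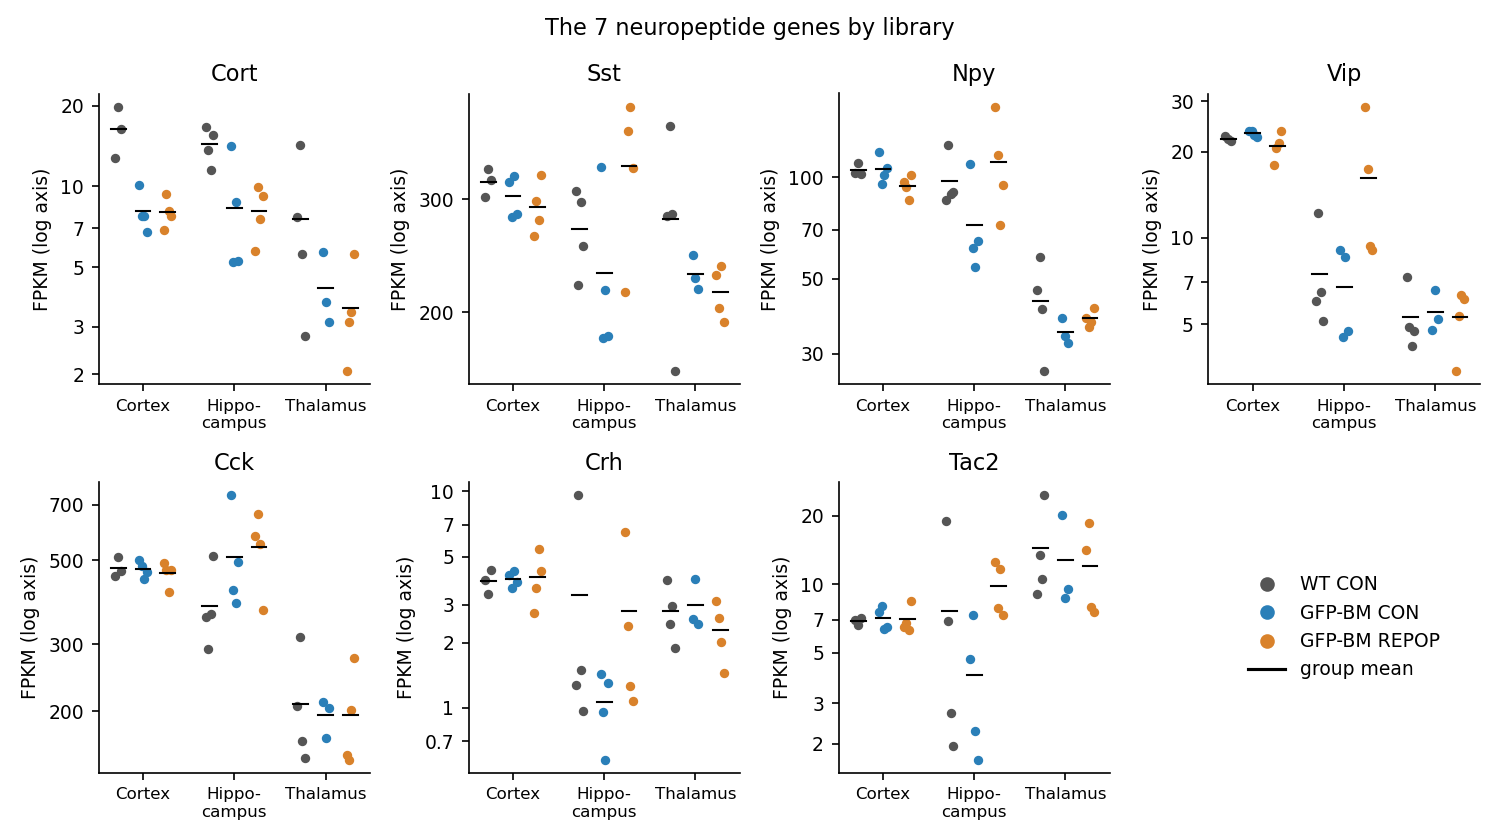
FPKM on a log axis for the 7 genes in all 34 libraries, grouped by region on the horizontal axis and coloured by treatment; short lines are group means. In cortex the points of Sst, Npy, Vip, Cck and Tac2 lie close together within 1.23- to 1.38-fold from lowest to highest, apart from Cort at 2.92-fold and Crh at 1.97-fold, and the hippocampus points are the most scattered for Crh (16.7-fold), Tac2 (11.2-fold) and Vip (6.32-fold).

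Interneuron genes as a group were not lower in the irradiated cortex than in WT CON, with 18 of 26 markers positive in GFP-BM CON and 15 in GFP-BM REPOP. Over 26 markers of GABAergic interneurons, the median difference was 0.14 in GFP-BM CON and 0.05 in GFP-BM REPOP relative to WT CON, beside 0.02 over all genes for both. The GABA-synthesizing enzyme Gad1 differed by 0.16 (SE 0.10) and 0.00 (SE 0.10), its partner Gad2 by 0.38 (SE 0.15) and 0.24 (SE 0.15), and the vesicular GABA transporter Slc32a1 by -0.07 (SE 0.07) and -0.08 (SE 0.07). Lhx6, the transcription factor of the lineage that gives Sst and Pvalb cells, differed by -0.08 (SE 0.09) and -0.10 (SE 0.09), and Pvalb, the marker of fast-spiking cells, by -0.27 (SE 0.10) and -0.12 (SE 0.10). The largest differences were those of Erbb4, the neuregulin receptor of interneurons, at 0.97 (SE 0.31) and 0.85 (SE 0.31), of Calb2 (calretinin) at 0.92 (SE 0.43) in GFP-BM CON, and of Adarb2, a marker of interneurons from the caudal eminence, at 0.74 (SE 0.17) in GFP-BM REPOP. Lamp5 went the other way, at -0.36 (SE 0.08) in GFP-BM CON and -0.38 (SE 0.08) in GFP-BM REPOP. None of the 26 was called in GFP-BM REPOP against WT CON, with adjusted p values of 0.27 for Erbb4, 0.081 for Adarb2 and 0.074 for Lamp5. In GFP-BM REPOP minus GFP-BM CON, 21 of 26 were negative and none was called. The median there was -0.07, beside -0.01 over all genes.

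The machinery and targets of the peptides differed little in cortex as well. Over 12 genes of peptide processing and granules the median differences from WT CON were 0.01 and 0.02, with none called in GFP-BM REPOP. Over the 14 of 16 peptide receptors and binding proteins that were tested, the medians were 0.11 and 0.08, again with none called in GFP-BM REPOP. Here the largest values were those of Vipr2, a receptor of vasoactive intestinal peptide, at 0.75 (SE 0.66) and 0.58 (SE 0.66), of Crhbp, which binds and holds back corticotropin-releasing hormone, at -0.49 (SE 0.11) in GFP-BM CON, and of Crhr2, a receptor of that family, at -0.52 (SE 0.21) in GFP-BM REPOP. Of 15 other neuropeptides, 1 fell in GFP-BM REPOP, the activity-induced granule peptide Vgf, by 0.32 (SE 0.06; adjusted p = 0.039). Ucn (urocortin) and Rln3 (relaxin 3) gave -0.72 (SE 0.63) and 0.60 (SE 0.62) in GFP-BM CON.

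Some other measures also differed between the cortex groups, though not all in the same way as Cort. A list of 17 activity-regulated genes, among them Fos and Egr1, had a mean level of 4.00 to 4.36 in WT CON, 3.62 to 3.88 in GFP-BM CON and 2.97 to 4.05 in GFP-BM REPOP, and none of its genes was at 0. Its median difference was -0.54 in GFP-BM CON and -0.55 in GFP-BM REPOP, with Egr2 at -1.48 (SE 0.47) and Fos at -0.92 (SE 0.47) in the first. In GFP-BM REPOP against WT CON, 1 of the 17 fell, the Fos relative Fosl2, by 0.66 (SE 0.12; adjusted p = 0.028), and 15 of 17 had a negative difference. Microglia markers (10 genes, none at 0) had a mean level of 3.15 to 3.4, 3.06 to 3.20 and 2.69 to 2.91 in the 3 groups, whereas excitatory neuron markers lay between 5.73 and 5.84 in all cortices. Choroid plexus markers (10 genes, none at 0) were at 1.38 to 1.78 in WT CON, -0.19 to 1.70 in GFP-BM CON and -0.09 to 1.66 in GFP-BM REPOP, with median differences of -0.78 and -0.87 and 9 and 10 of 10 negative. Striatum markers (12 genes, none at 0) were at 4.12 to 5.02, 3.60 to 4.92 and 3.66 to 4.69, with medians of -0.20 and -0.35 and all 12 negative in both. Thalamus markers (12 genes, none at 0) were at 1.22 to 1.68, 1.44 to 1.71 and 1.53 to 2.80, with medians of -0.03 and 0.68, all 12 positive in GFP-BM REPOP. Of these 3 lists, no gene was called in GFP-BM REPOP against WT CON. The part of all these measures in the level of Cort was not tested.

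The balance of genes rich and poor in G and C also differed, taken per library as the median log2 level of the 10% of genes richest in G and C minus that of the 10% poorest. It was 0.75 to 1.24 in the WT CON cortices, 0.43 to 0.58 in GFP-BM CON and 0.41 to 0.99 in GFP-BM REPOP. The Cort transcript is 58.5% G and C, more than 90.9% of genes tested. After each library was corrected for the G and C content of genes, the differences of Cort were -0.97 (SE 0.15) and -0.99 (SE 0.15). These are close to the values without it and are again a description.

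**Figure D3:**
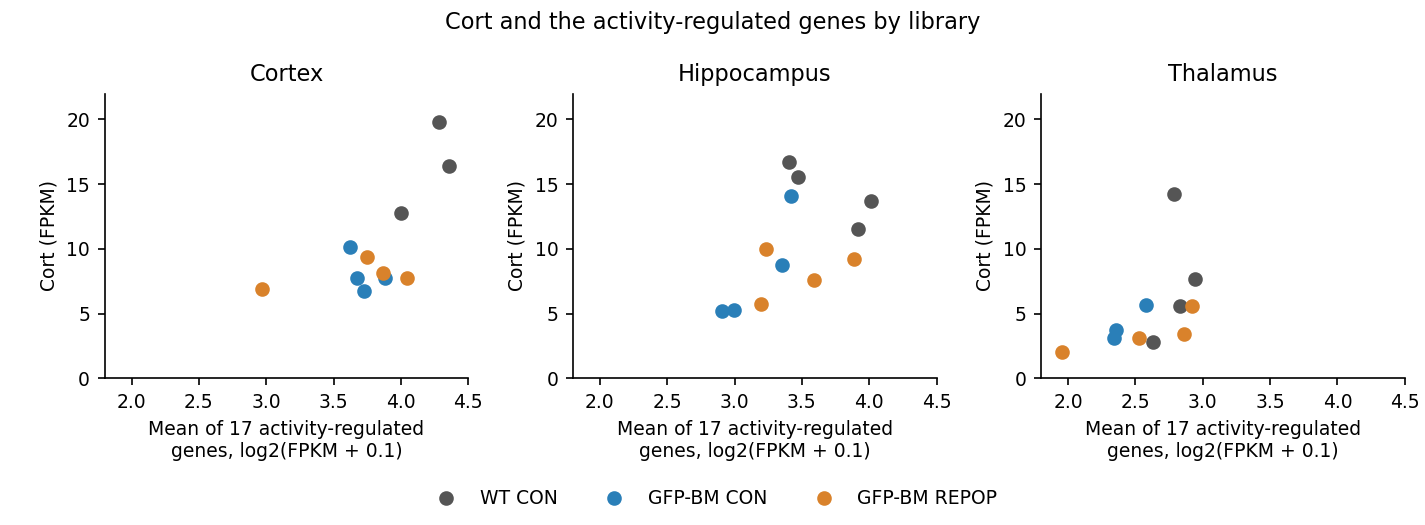
Cort in FPKM (vertical axis) against the mean level of 17 activity-regulated genes (horizontal axis, log2(FPKM + 0.1)), 1 point per library, with a panel per region and colours for treatment. In cortex the WT CON libraries lie at the upper right, at 4.00 to 4.36 on the horizontal axis, where GFP-BM REPOP reaches 4.05, and in hippocampus and thalamus WT CON and GFP-BM CON overlap in Cort.

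In the hippocampus Cort was also lower in irradiated mice, but no difference passed the test. It was at 16.7, 13.7, 11.5 and 15.6 FPKM in WT CON, at 14.1, 5.22, 8.72 and 5.29 FPKM in GFP-BM CON, and at 5.77, 9.99, 7.56 and 9.21 FPKM in GFP-BM REPOP. All 4 GFP-BM REPOP libraries lay below the lowest WT CON library, while GFP-BM CON replicate 1 lay inside the WT CON range. The difference was -0.89 (SE 0.29; adjusted p = 0.11) for GFP-BM CON and -0.83 (SE 0.29; adjusted p = 0.45) for GFP-BM REPOP. Without 3 libraries low in hippocampus markers, described below, it was -0.91 (SE 0.34; adjusted p = 0.24) and -0.72 (SE 0.40; adjusted p = 0.85). With all libraries and G and C correction it was smaller, at -0.708 (SE 0.313, adjusted p = 0.22) and -0.717 (SE 0.313, adjusted p = 0.54). The balance of G and C had a mean of 2.571 in the WT CON hippocampi, 1.371 in GFP-BM CON and 1.936 in GFP-BM REPOP. At an unadjusted p under 0.05 limma had 1 of 7 peptides in the first comparison (Cort) beside 23.9% of all genes, and 2 of 7 in the second (Cort and Vip) beside 9.67%, and voom called none in either. The background was 0 of 14710 genes (0%) called and 13.7% without overlap in the first comparison, and 2 genes (0.0136%) called and 4.00% without overlap in the second, where Cort was the 1 peptide of 7 whose groups were apart. The activity-regulated genes had median differences of -0.82 and -0.21 (-0.63 and -0.12 without the 3 libraries). Their mean levels were 3.41 to 4.01 in WT CON, 2.90 to 3.42 in GFP-BM CON and 3.20 to 3.89 in GFP-BM REPOP. Of the 26 interneuron markers, 12 and 10 were positive, with medians of -0.14 and -0.11 and none called. Gad1 differed by -0.62 (SE 0.36) and -0.31 (SE 0.36), and Slc32a1 by -0.76 (SE 0.31) and -0.30 (SE 0.31). Gad2 differed by 1.235 (SE 0.53) and 0.64 (SE 0.53), and Pvalb by 0.92 (SE 0.46) and 1.28 (SE 0.46). Lhx6 differed by 0.10 (SE 0.22) and 0.24 (SE 0.22).

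In the thalamus Cort was at 7.71, 14.3, 5.61 and 2.77 FPKM in WT CON, at 5.70, 3.73 and 3.12 FPKM in GFP-BM CON, and at 2.06, 3.12, 3.402 and 5.58 FPKM in GFP-BM REPOP. The spread of the WT CON libraries covered nearly all others, and the lowest thalamus count was 23 reads. The differences from WT CON were -0.66 (SE 0.49; adjusted p = 0.38) and -0.93 (SE 0.45; adjusted p = 0.21). With G and C correction they were -0.44 (SE 0.44) and -0.73 (SE 0.40). The background was 0% and 0.836% of genes called, and 23.1% and 18.8% without overlap. GFP-BM REPOP minus GFP-BM CON was -0.28 (SE 0.49) for Cort, with 0% of genes called. None of the 7 peptides was called in the 3 thalamus comparisons, none had an unadjusted p under 0.05, voom called none, and none had groups without overlap against WT CON. The other 6 differed from WT CON by -0.25 to 0.11 in GFP-BM CON and by -0.32 to -0.005 in GFP-BM REPOP. Of the 26 interneuron markers, 2 rose in the GFP-BM REPOP thalamus, Erbb4 by 2.15 (SE 0.37; adjusted p = 0.043) and Adarb2 by 0.64 (SE 0.11; adjusted p = 0.047). Outside the cortex, whose values chose Cort, its difference from WT CON was negative in hippocampus and thalamus in both irradiated groups. None of these differences was called, and only GFP-BM REPOP in hippocampus was apart from WT CON. The 2 irradiated groups share their WT CON libraries, and the regions come largely from the same mice, so the signs are not independent.

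**Figure D4:**
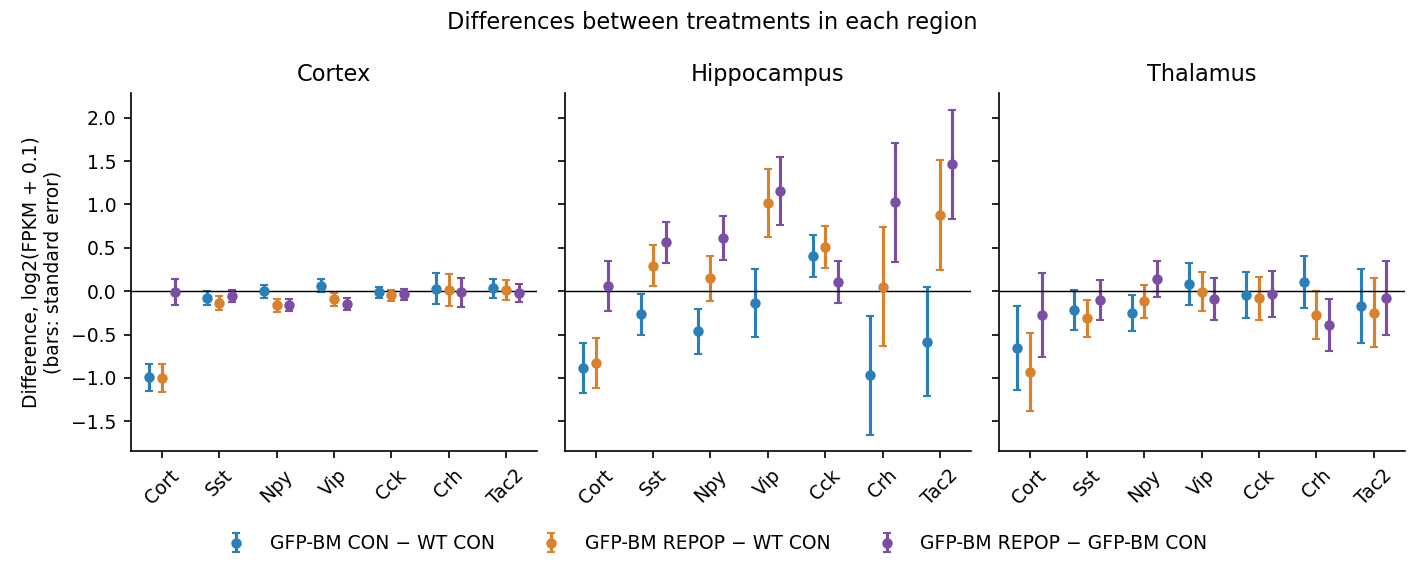
Differences in log2(FPKM + 0.1) between treatments (vertical axis) for the 7 genes (horizontal axis) in each region; points are limma estimates, bars are 1 standard error, and colours are the 3 comparisons. In cortex Cort lies at -0.995 and -1.004 against WT CON and the other 6 genes between -0.16 and 0.06, and in hippocampus all 7 differences of GFP-BM REPOP minus GFP-BM CON lie above 0, between 0.06 and 1.46.

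The hippocampus libraries did not all match their label. The mean level of 12 hippocampus markers, such as Prox1 of the dentate gyrus, was 3.51 to 4.67 in 9 of them but 1.76 in WT CON replicate 2, 2.14 in GFP-BM REPOP replicate 1 and 2.69 in GFP-BM REPOP replicate 4, within or below the range of the cortex libraries (1.94 to 3.05). GFP-BM REPOP replicate 4 also held the striatum markers at a mean of 6.47, and 11 cortex markers were at 3.42 to 4.04 in the GFP-BM REPOP hippocampi against 2.70 to 3.17 in the other 2 groups. Striatum markers (12 genes) lay at 1.81 to 5.03 in the WT CON hippocampi, beside 2.54 to 2.77 in GFP-BM CON. All 12 differed negatively from WT CON in both irradiated groups, with medians of -1.64 and -0.53 and none called. The part of striatal tissue in the hippocampus differences of the peptides was not tested. The differences between hippocampus groups that follow are given with and without the 3 libraries, which were picked by hippocampus markers alone.

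Vip, Crh and Tac2 varied most there. Vip was at 6.05, 12.2, 6.47 and 5.14 FPKM in WT CON, at 9.11, 4.53, 8.56 and 4.75 FPKM in GFP-BM CON, and at 28.7, 17.4, 9.38 and 9.10 FPKM in GFP-BM REPOP. The highest GFP-BM REPOP value, and the highest WT CON value, came from libraries low in hippocampus markers. GFP-BM REPOP minus GFP-BM CON was 1.15 (SE 0.39; adjusted p = 0.32), and 0.99 (SE 0.35; adjusted p = 0.49) without the 3 libraries. A fit of all 9 groups together, which shares 1 estimate of spread, gave the same difference with a smaller SE of 0.29 and an adjusted p of 0.019. That fit called 665 genes in this comparison, against 4 in the fit of the hippocampus alone.

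Crh was at 1.27, 9.61, 1.49 and 0.971 FPKM in the WT CON hippocampi and at 6.49, 2.39, 1.27 and 1.07 FPKM in GFP-BM REPOP, the top value of each group again being a library low in hippocampus markers. In GFP-BM CON it lay between 0.577 and 1.44 FPKM. GFP-BM REPOP minus GFP-BM CON was 1.02 (SE 0.69; adjusted p = 0.55) for Crh, and 0.73 (SE 0.41; adjusted p = 0.53) without the 3 libraries. Tac2, whose peptide acts at the receptor encoded by Tacr3, was at 19.0, 6.93, 2.72 and 1.95 FPKM in WT CON, at 4.72, 7.36, 2.28 and 1.70 in GFP-BM CON and at 12.6, 7.88, 11.7 and 7.33 in GFP-BM REPOP. GFP-BM REPOP minus GFP-BM CON was 1.46 (SE 0.63; adjusted p = 0.41) for Tac2, and 1.46 (SE 0.86; adjusted p = 0.54) without the 3 libraries.

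Sst stood at 309, 220, 297 and 253 FPKM in the WT CON hippocampi, at 337, 183, 216 and 184 in GFP-BM CON and at 215, 383, 419 and 336 in GFP-BM REPOP. Npy stood at 85.4, 125, 89.1 and 90.3 FPKM, at 110, 61.7, 54.0 and 64.6, and at 162, 116, 72.1 and 95.1 in the same order. Both sets of groups overlapped. GFP-BM REPOP exceeded GFP-BM CON by 0.56 (SE 0.24) for Sst and 0.61 (SE 0.26) for Npy, both at an adjusted p of 0.40, and by 0.85 (SE 0.24; adjusted p = 0.49) and 0.39 (SE 0.28; adjusted p = 0.58) without the 3 libraries. Of the 7 peptides, 0 were called by limma in this comparison, 4 had an unadjusted p under 0.05 (Vip, Sst, Npy and Tac2) beside 11.7% of all genes, voom called 0, and 4 of 14710 genes (0.0272%) were called in all. All 7 differences were positive with a median of 0.61 beside -0.01 over all genes, and other neuropeptides (median 0.75, 0 of 15 called), peptide receptors (median 0.51, 0 of 14 called) and activity-regulated genes (median 0.52, 0 of 17 called) lay above 0 too. Cortex markers had a median of 0.68, with 10 of 11 positive. Without the 3 libraries, all 7 peptides were again positive, with a median of 0.73 beside -0.02 over all genes, and 2 (Sst and Vip) had an unadjusted p under 0.05 beside 1474 of the 14710 genes. The medians of other neuropeptides, receptors, activity-regulated genes and cortex markers were then 0.42, 0.27, 0.49 and 0.60.

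**Figure D5:**
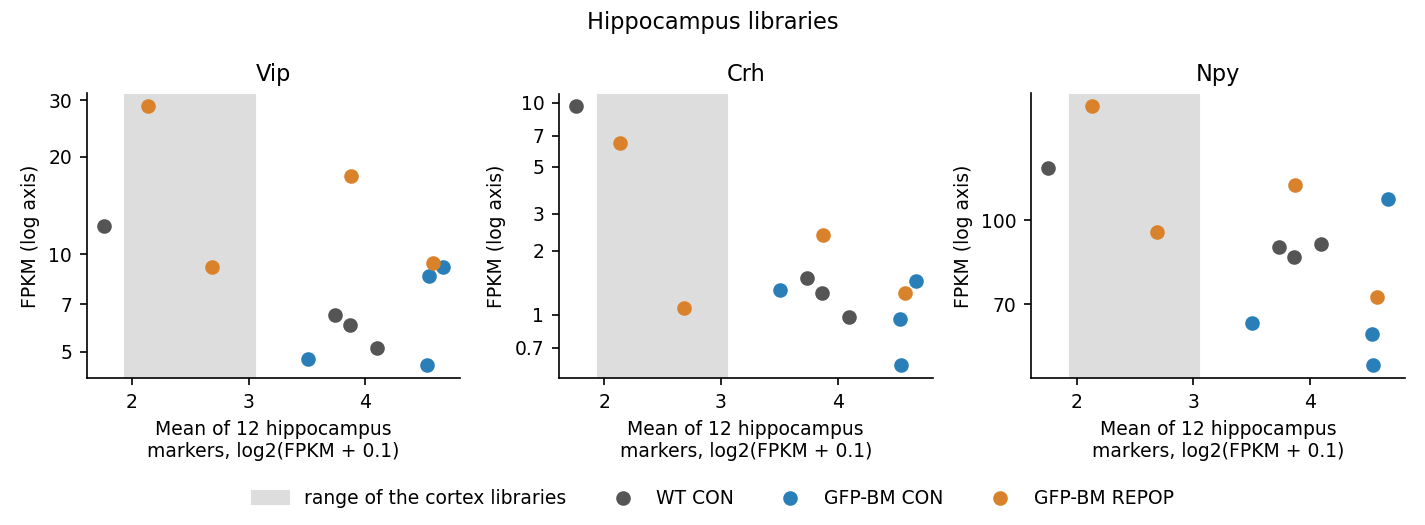
FPKM on a log axis of Vip, Crh and Npy in the 12 hippocampus libraries against the mean level of 12 hippocampus markers (horizontal axis, log2(FPKM + 0.1)), coloured by treatment, with the range of the cortex libraries shaded. The highest WT CON and GFP-BM REPOP points of all 3 genes lie at marker means of 1.76 and 2.14, at the low end of the axis.

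Whether the treatment effects differed between regions was tested in 1 fit of all 9 groups with the mouse as a random block. For GFP-BM REPOP against GFP-BM CON, hippocampus minus cortex called 26 of 14710 genes (0.177%), thalamus minus cortex called 0 (0%) and thalamus minus hippocampus called 4 (0.0272%). For GFP-BM CON against WT CON, thalamus minus hippocampus called 0 (0%). None of the peptides was called in any of the 4, neither by limma nor by voom. At an unadjusted p under 0.05 there were 4 of 6 peptides tested in the first, 0 of 6 in the second, 3 of 7 in the third and 0 of 7 in the fourth, beside 8.52%, 0.204%, 7.64% and 2.63% of all genes, and the smallest adjusted p was 0.25, in the first. For Cort, the effect of GFP-BM CON against WT CON in thalamus minus that in hippocampus was 0.23 (SE 0.52; adjusted p = 1.0), and the effects involving cortex carry no test.

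The order of the 7 genes by FPKM, a scale per length, was much alike in all regions. Cck and Sst led, with Npy next in every group, and Vip, Cort, Tac2 and Crh below. In WT CON cortex the order was Cck (477 ± 28.4 FPKM, SD, n = 3), Sst (320 ± 15.9), Npy (105 ± 4.58), Vip (22.2 ± 0.409), Cort (16.3 ± 3.51), Tac2 (6.91 ± 0.262) and Crh (3.87 ± 0.50), with no overlap between neighbours. In both irradiated groups of cortex the ranges of Cort and Tac2 overlapped. In hippocampus and thalamus the ranges of Cck and Sst overlapped in WT CON and GFP-BM REPOP, and those of Cort overlapped with at least 1 neighbour in every group.

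Between regions, in the fit of all 9 groups, some differences were called. The treatments were tested mainly in 1 fit per region, so their calls are not compared with these. The thalamus libraries also held markers of other tissue. Hypothalamus markers (10 genes) had a mean level of 1.13 to 3.67 there, beside -1.19 to 0.52 in cortex and -1.2 to 0.45 in hippocampus. Amygdala and claustrum markers (6 genes) were at 2.04 to 3.03, beside 0.71 to 1.77 and 0.64 to 1.68. The part of such tissue in the region differences of the peptides was not tested. In WT CON, where Vip in cortex (21.8 to 22.6 FPKM) was clear of hippocampus (5.14 to 12.2) and thalamus (4.20 to 7.33), it was higher in cortex by 1.64 (SE 0.32; adjusted p = 0.00045) and 2.07 (SE 0.32; adjusted p = 3.3e-05). Once libraries were corrected for G and C content, of which the Vip transcript has 38.7%, these were 0.36 (SE 0.36; adjusted p = 0.47) and 1.18 (SE 0.36; adjusted p = 0.017). The balance of G and C was 0.75 to 1.24 in the WT CON cortices, 1.75 to 3.39 in the hippocampi and 1.09 to 3.65 in the thalami. Npy in cortex exceeded thalamus, where it lay between 26.6 and 58.2 FPKM, by 1.35 (SE 0.23; adjusted p = 0.00014), and Cck exceeded its thalamus range of 151 to 313 FPKM by 1.25 (SE 0.24; adjusted p = 0.00043). Cortex against hippocampus called 1 of 6 peptides (Vip) beside 36.9% of all genes, and cortex against thalamus called 3 of 6 beside 30.0%. The first share is below the background, and the second rests on 3 genes. The cortex values of Cort chose the set, so its differences of 0.17 (SE 0.38) and 1.30 (SE 0.38) carry no test.

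Hippocampus against thalamus in WT CON called 3 of 7 peptides beside 17.7% of all genes. Npy was higher in hippocampus by 1.22 (SE 0.21; adjusted p = 0.00032), Cck by 0.89 (SE 0.22; adjusted p = 0.0058) and Cort by 1.13 (SE 0.36; adjusted p = 0.027). The call for Cort was lost when hippocampus replicate 1 (adjusted p = 0.059), hippocampus replicate 4 (0.063), thalamus replicate 3 (0.061) or thalamus replicate 4 (difference 0.73, adjusted p = 0.17) of WT CON was left out. Tac2 was the 1 peptide with its highest mean in thalamus in every treatment, with 9.04 to 24.6 FPKM in WT CON, and its difference of -1.35 (SE 0.49) had an adjusted p of 0.054, which became 0.0024 at -1.96 without hippocampus WT CON replicate 1. It was also called with voom (-1.34, adjusted p = 0.048), with median-ratio scaling (-1.36, 0.048), without the mouse block (0.048), with G and C correction (-1.40, 0.032) and without hippocampus GFP-BM CON replicate 2 (0.045) or 4 (0.044). Crh was not called in any of the 3 WT CON comparisons, but without the hippocampus library low in its markers (WT CON replicate 2) it was higher in cortex than in hippocampus by 1.57 (SE 0.42; adjusted p = 0.0071). Without the 3 doubtful libraries it was also lower in hippocampus than in thalamus, by 1.08 (SE 0.30; adjusted p = 0.012).

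In GFP-BM REPOP mice, cortex against hippocampus called 0 of 6 peptides by limma and by voom, beside 17.5% of all genes, with 0 at an unadjusted p under 0.05 beside 33.7%. The difference of Cort, given with no test, was 0.001 (SE 0.36). Without hippocampus GFP-BM REPOP replicate 1, 1 peptide was called, Vip at 0.85 (SE 0.27; adjusted p = 0.033), and without the 3 doubtful libraries it was Crh at 1.103 (SE 0.33; adjusted p = 0.018). Cortex against thalamus called 3 of 6 beside 14.8%. These were Vip at 1.99 (SE 0.29; adjusted p = 2e-05), Npy at 1.30 (SE 0.21; 8.3e-05) and Cck at 1.28 (SE 0.22; 0.00014). The difference of Cort, again with no test, was 1.24 (SE 0.36).

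Hippocampus against thalamus in the same mice called 5 of 7 beside 34.3% of all genes. Npy was higher in hippocampus by 1.48 (SE 0.21; adjusted p = 2.4e-05), Cck by 1.48 (SE 0.22; 3.4e-05), Vip by 1.46 (SE 0.29; 0.00063), Cort by 1.23 (SE 0.36; 0.0094) and Sst by 0.61 (SE 0.21; 0.024). All 5 were called without the 3 doubtful libraries too. Sst, which lay between 193 and 236 FPKM in these thalami, lost its call when hippocampus replicate 2 (0.066) or 3 (0.098) or thalamus replicate 2 or 4 (0.056 each) of that group was left out, and also with G and C correction (0.49, adjusted p = 0.062) and quantile normalization (0.34, 0.13). Vip was at 2.47 (SE 0.34) with G and C correction. Activity-regulated genes also lay lowest in thalamus. Of 17, all 17 were higher in cortex than in thalamus and 15 were higher in hippocampus than in thalamus, with 11 called in each comparison. Over all genes, 14.8% and 34.3% were called in these comparisons, in either direction.

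Across the 34 libraries, which share region, mouse and G and C balance, the genes most like Cort by Pearson's r on log2(FPKM + 0.1) were Tpm3 (a tropomyosin; 0.87), Ube2ql1 (a ubiquitin-conjugating enzyme; 0.87), Egr4 (an activity-induced transcription factor; 0.84), Brms1 (0.84) and Tspan7 (a tetraspanin; 0.83). Without the 2 libraries farthest from the median of Cort they were 0.85, 0.85, 0.79, 0.79 and 0.77. Among the peptides Cort went most with Npy (r = 0.73), Cck (0.67) and Sst (0.64). After the mean of its group was taken from each library, the highest correlation of Cort was with Sst (0.70), followed by Cck (0.64) and Npy (0.52), and its correlation with Crh was -0.12 and with Tac2 -0.10. In the same deviations Crh went with Vip (0.64) and Npy (0.60). All 3 were highest of their group in hippocampus WT CON replicate 2 and GFP-BM REPOP replicate 1, but not in GFP-BM REPOP replicate 4. These correlations over libraries are descriptions.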

How the data were processed

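The authors deposited FPKM values (fragments per kilobase, scaled to the library's total) per gene for 34 libraries. The labels name mm10 and, without roles, STAR, featureCounts, edgeR and limma. Whole reads could be recovered for 16389 of 16389 genes (tolerance 0.001 read) and summed to 17085018 to 26010509 per library, so counting error is small for Cck or Sst and matters for Cort and Crh.

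Genes with FPKM of at least 1 in at least 3 libraries were kept, less 343 of other biotypes, which left 14710. Values were tested as log2(FPKM + 0.1), where folds of low genes are understated, with limma 3.58.1 in R 4.3.3 with a mean-variance trend, 1 fit per region and, between regions, 1 fit of all 9 groups with the mouse as random block (correlation -0.038). Calls are at a Benjamini-Hochberg adjusted p of 0.05 over all 14710 genes. Fits were tested on simulated data. Each library is 1 mouse and region, so p-values measure the spread between libraries, which holds differences in dissection as well as between mice. Replicate numbers in the titles name different mice in different groups and pair nothing between treatments.

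The peptides and gene lists were chosen with earlier results of these data known. Tests of Cort between GFP-BM REPOP cortex and other regions had been planned and were dropped, since Cort was chosen by its level in irradiated cortex. The text names all 7 peptides and the 5 genes most like Cort. Planned for naming in each list were the 3 called genes with the largest difference, or the 2 largest where none was called. Gad1, Gad2, Slc32a1, Pvalb and Lhx6 were planned in every case. Not all of these are named. Several lists are given by level or median alone, and those interneuron genes only for cortex and hippocampus against WT CON. Lamp5 was named after seeing the data. Alternatives were pseudocounts of 1 and 0.01, no filter, a mean FPKM of at least 1, quantile and median-ratio scaling, voom on recovered reads, no trend, other sample sets or blocks, and each library left out. G and C correction (13875 genes, 94.3%, from the longest GENCODE transcript) and leaving out 3 hippocampus libraries were chosen after seeing the data. Promoters came from RefSeq (GRCm38.p6), where Crh was not matched and 6 of 7 were.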

Additional observations from a re-analysis of the deposited data

Results flagged for a closer look

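In groups of 4 libraries, a library was set apart when its gap to the next exceeded Dixon's 95% critical value as a share of the group's range, which chance gives in about 1 in 20 groups. Of 49 groups examined for the 7 peptides, 2 held such a library, and both were hippocampus WT CON replicate 2. Npy was at 125 FPKM there, with a gap of 0.874 of the range, and Crh at 9.61 FPKM, with a gap of 0.940. This library had the lowest mean of the hippocampus markers, 1.76.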

How the results depend on the processing

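For the counts of peptides called, 221 values under other settings and 429 with 1 library left out stayed within 1.5 times the main count, while 3 and 2 did not. One was hippocampus GFP-BM REPOP against GFP-BM CON, 0 to 1 with all 9 groups in 1 fit. Cortex against hippocampus went from 1 to 2 in WT CON and from 0 to 1 in GFP-BM REPOP without the 3 hippocampus libraries low in their markers, and ranged from 1 to 2 and from 0 to 1 with 1 library left out. The cause was not tested.

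Near 0, Cort reversed sign in hippocampus GFP-BM REPOP minus GFP-BM CON, to -0.009 with G and C correction and -0.121 to 0.35 with 1 library left out. Vip reversed to -0.565 with G and C correction in cortex against hippocampus of GFP-BM REPOP. Cck in cortex against hippocampus of WT CON was called only with G and C correction (0.60, adjusted p = 0.041).

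The replicate number pairs nothing: 5 of 32 same-numbered pairs had deviations correlated above 0.1 (-0.43 to 0.49), and 4 libraries matched their own number best. With it as a replicate block, 0 peptides were called in the 8 treatment comparisons tested, as without it, and Cort in cortex was at -0.95 and -0.96. Over all genes the block took the calls in cortex from 47 to 0, 108 to 36 and 7 to 1, in hippocampus from 2 to 0 and 4 to 0, and in thalamus GFP-BM REPOP against WT CON from 123 to 11. Depth limits Cort and Crh, at 17 to 261 reads per library.

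Counts over all genes moved more than those of the peptides. With all 9 groups in 1 fit, calls went from 47 to 0 and 108 to 27 in cortex against WT CON, from 0 to 2849, 2 to 411 and 4 to 665 in hippocampus, and from 0 to 1347 and 123 to 1954 in thalamus against WT CON. With G and C correction, cortex GFP-BM REPOP against GFP-BM CON went from 7 to 20 and the hippocampus comparisons to 6, 6 and 1. With voom, hippocampus and thalamus GFP-BM REPOP against WT CON went to 5 and 220, and with only genes of known G and C content to 0 and 74. Without the 3 hippocampus libraries, the hippocampus comparisons went to 1, 0 and 0, cortex against hippocampus of GFP-BM REPOP from 2567 to 4302, and the effect of GFP-BM REPOP against GFP-BM CON from 26 to 1 (hippocampus minus cortex) and 4 to 2 (thalamus minus hippocampus).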
